A study of Mus musculus with 27 samples.

Results

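The genes described here are 10 mouse genes for proteins that neutrophils carry in their cytosol or granules. They were taken by symbol from a table of read counts for 24062 genes: the calprotectin subunits S100a8 and S100a9, the secondary granule genes Ngp, Camp, Ltf, Lcn2 and Mmp8, the tertiary granule gene Mmp9, and the primary granule genes Elane and Mpo. All 10 were found. They were chosen by their role and with their levels in Het and WT lungs already known, so Het and WT lungs are set side by side for them as a description and no p-value is given. Neutrophils are short-lived white blood cells that leave the bone marrow ready made, and lung capillaries hold many of them. Their granules are filled in a fixed order during maturation: primary granule genes are transcribed in promyelocytes, secondary granule genes in myelocytes and metamyelocytes, and tertiary granule genes later still. Calprotectin transcripts persist in mature neutrophils, where the protein is among the most abundant of the cytosol, while primary granule transcripts are largely lost once a neutrophil is mature.

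The study sequenced 27 libraries of C57BL/6 mice in 9 groups of 3. Whole lungs came from animals aged 10 days and were labelled Het or WT. Mouse embryonic fibroblasts, harvested while growing asynchronously at an early passage, formed KO, KO-NTD and WT groups in a first experiment and Het, Het-NTD, WT-NTD and WT groups in a second. The series title names Foxm1, a forkhead transcription factor that drives cell cycle genes. The labels do not say which alleles Het and KO carry, what NTD stands for, or whether the 3 libraries of a group came from separate animals or cultures, so the errors below may be partly technical. Foxm1 itself, in CPM (counts divided by the library total in units of 1000000 and scaled by TMM, which evens out library composition), averaged 18.4 ± 1.55 in Het lungs and 19.2 ± 1.08 in WT lungs (SD, n = 3 each), and the ranges overlapped. It averaged 146 ± 6.64 CPM in KO fibroblasts and 136 ± 3.34 CPM in WT fibroblasts of the first experiment, and the ranges overlapped. In the second experiment it averaged 129 ± 2.63 CPM in Het and 147 ± 1.99 CPM in WT, and every Het library lay below every WT library. These counts are summed over the whole gene and would include exons outside a deleted part, so they do not check the labels. In the NTD groups it averaged 346 to 362 CPM. Lung libraries held 29730693 to 50326730 counts and fibroblast libraries 30247046 to 69517834.

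In TMM-scaled CPM, S100a8 and S100a9 were higher in every Het lung than in every WT lung, on average by 1.46 and 1.52 times. In whole lung, fewer or more cells of a type and less or more RNA per cell cannot be told apart. These small calcium-binding proteins pair to form calprotectin, which binds zinc and manganese and acts on Tlr4 and Ager. S100a8 stood at 18.3, 15.4 and 21.3 CPM in the Het lungs, against 11.8, 11.2 and 14.6 CPM in the WT lungs (550, 658 and 1111 counts against 485, 372 and 488). The lowest Het lung lay just above the highest WT lung. The means were 18.3 ± 2.96 CPM in Het and 12.6 ± 1.81 CPM in WT (SD, n = 3 each), a log2 difference of 0.54 (SE 0.18). With CPM scaled by the library total alone the groups overlapped for S100a8, since the second Het lung then had 14.9 CPM and the third WT lung 15.0 CPM. S100a9 stood at 30.9, 27.1 and 32.5 CPM in the Het lungs, against 16.9, 17.5 and 25.2 CPM in the WT lungs. Its means were 30.2 ± 2.78 CPM in Het and 19.9 ± 4.63 CPM in WT, a log2 difference of 0.60 (SE 0.18). The third WT lung was closer to the Het lungs than to the other WT lungs for S100a9. Across the 6 lungs the log2 levels of these genes had a Pearson r of 0.96, given as a description of libraries that share 2 groups.

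The S100a8 and S100a9 genes lie 22.6 kb apart on chromosome 3 with none of the table's genes between them, S100a8 on the plus strand (chr3:90668978-90670035, GRCm38) and S100a9 on the minus strand (chr3:90692632-90695721). Neither shares exon sequence with another gene of the table. Their start regions are printed because the pair moved together: RefSeq promoter windows of the GRCm38.p6 build, from 250 bases before to 50 bases after the start, chr3:90668821-90669120 on the plus strand and chr3:90695672-90695971 on the minus strand. Capitals mark matches, on either strand, to the letters of 4 factors or elements. These were TTNNGNAA for the C/EBP family of granulocyte factors, GAGGAA for the myeloid factor PU.1, TGTGGT for the RUNX family, and the box TATAAA.
S100a8: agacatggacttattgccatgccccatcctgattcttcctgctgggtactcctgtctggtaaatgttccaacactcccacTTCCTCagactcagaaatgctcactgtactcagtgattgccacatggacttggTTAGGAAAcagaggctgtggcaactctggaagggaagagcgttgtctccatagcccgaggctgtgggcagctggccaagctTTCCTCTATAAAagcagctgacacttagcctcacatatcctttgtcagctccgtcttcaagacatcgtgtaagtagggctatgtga
S100a9: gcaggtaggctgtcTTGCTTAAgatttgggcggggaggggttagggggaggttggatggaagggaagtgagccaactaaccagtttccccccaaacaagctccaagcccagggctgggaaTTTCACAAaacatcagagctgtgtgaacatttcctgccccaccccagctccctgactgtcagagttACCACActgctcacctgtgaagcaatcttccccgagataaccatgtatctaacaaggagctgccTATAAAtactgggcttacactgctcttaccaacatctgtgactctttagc
The S100a8 window holds a C/EBP match starting 117 bases before the start, PU.1 matches 170 and 36 bases before it and a TATAAA box 30 bases before it. The S100a9 window holds C/EBP matches 236 and 130 bases before the start and a RUNX match 64 bases before it, and a TATAAA box begins at the start site itself.

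**Figure D1:**
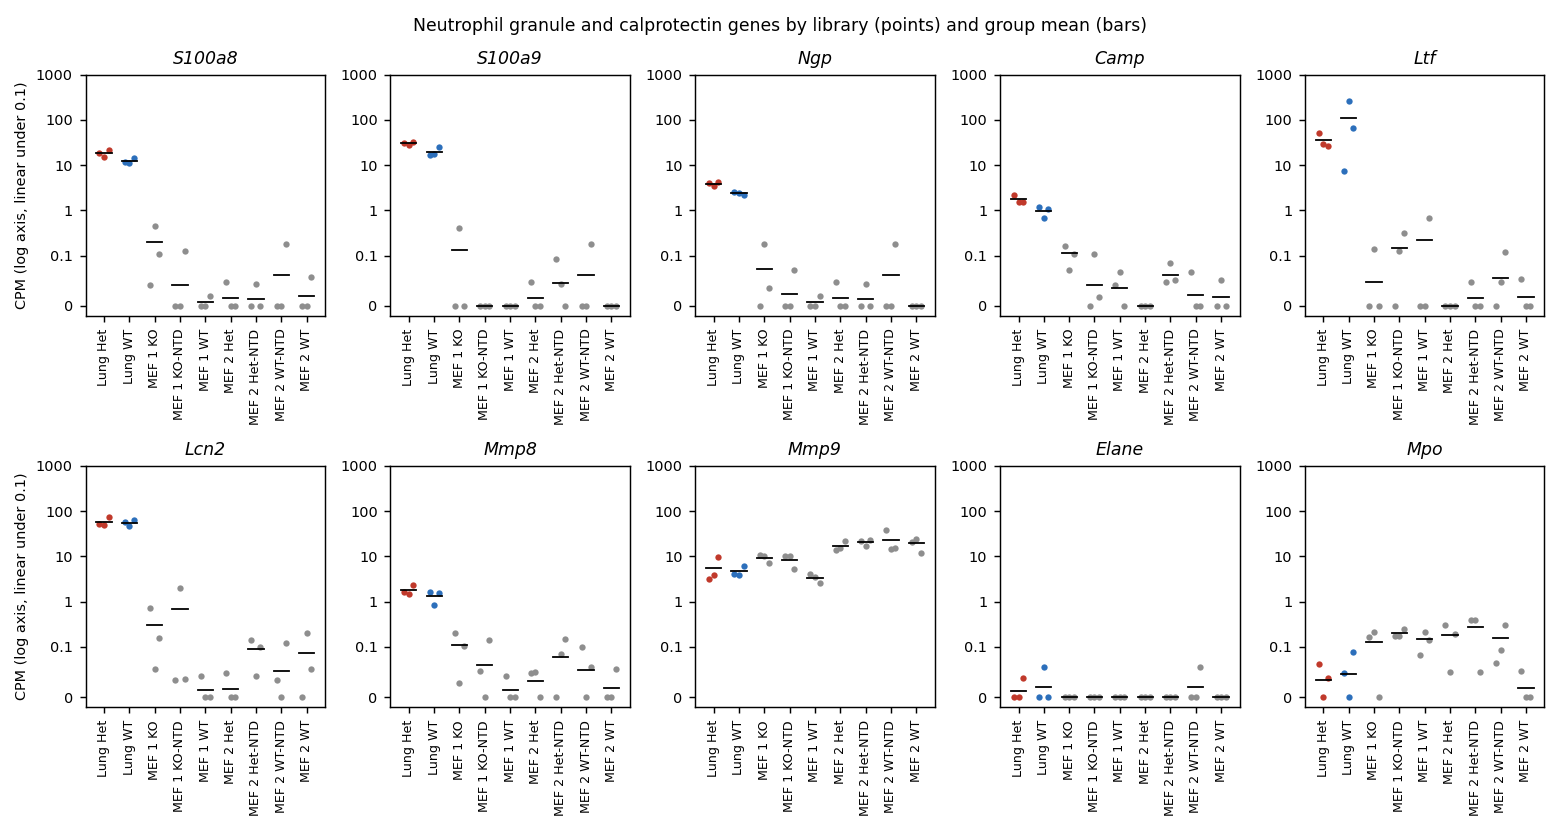
CPM of the 10 genes in each of the 27 libraries (points) with the mean of each group of 3 (bars), on a log axis that is linear under 0.1; MEF 1 and MEF 2 are the fibroblasts of the first and second experiment. Lung levels stand far above fibroblast levels for S100a8, S100a9, Ngp, Camp, Ltf, Lcn2 and Mmp8, Mmp9 is the exception, and Elane and Mpo lie near 0 in lung.

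Of the secondary granule genes, Ngp and Camp were also higher in every Het lung than in every WT lung. Ngp, neutrophilic granule protein, is a cystatin-like protein of maturing mouse neutrophils. It stood at 3.93, 3.41 and 4.25 CPM in the Het lungs, against 2.57, 2.36 and 2.19 CPM in the WT lungs. Its means were 3.86 ± 0.43 CPM in Het and 2.37 ± 0.19 CPM in WT (SD, n = 3 each), a ratio of 1.63 and a log2 difference of 0.70 (SE 0.21). Camp encodes the precursor of the mouse cathelicidin peptide, which kills bacteria. It stood at 2.198, 1.49 and 1.51 CPM in the Het lungs, against 1.17, 0.665 and 1.05 CPM in the WT lungs. These rest on 66, 64 and 79 counts in Het and 48, 22 and 35 counts in WT. The means were 1.73 ± 0.40 CPM in Het and 0.962 ± 0.27 CPM in WT, a ratio of 1.79 and a log2 difference of 0.84 (SE 0.34). S100a8, S100a9, Ngp and Camp were thus the 4 genes, of 8 tested, whose Het lungs all lay above the WT lungs in TMM-scaled CPM, which for S100a8 did not hold with library totals alone. Among all 15933 genes tested in lung, 1.96% did so and 2.28% did the reverse. Since these values chose the genes, the share is given as background only.

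Lcn2 and Mmp8 overlapped between the groups. Lcn2, lipocalin 2, starves bacteria of iron by binding their siderophores and is made by epithelial cells as well as by neutrophils. It stood at 53.1, 49.9 and 72.9 CPM in the Het lungs, against 58.1, 45.8 and 63.5 CPM in the WT lungs. The log2 difference was 0.07 (SE 0.19), and its sign turned to -0.11 without the third Het lung. Mmp8, the neutrophil collagenase, stood at 1.60, 1.47 and 2.32 CPM in the Het lungs, against 1.64, 0.846 and 1.59 CPM in the WT lungs, a log2 difference of 0.40 (SE 0.36). The difference was 0.17 without the third Het lung and 0.16 without the second WT lung.

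Of the 8 genes tested in lung, Ltf had the widest spread among the WT lungs. Lactoferrin, its product, binds iron and is stored in secondary granules and also made by glandular and mucosal epithelia. Ltf stood at 52.0, 29.2 and 26.3 CPM in the Het lungs, against 7.50, 257.6 and 64.5 CPM in the WT lungs (1561, 1253 and 1373 counts against 307, 8526 and 2152). The WT lungs held both the lowest and the highest value, and all 3 Het lungs lay between them. The means were 35.8 ± 14.1 CPM in Het and 110 ± 131 CPM in WT (SD, n = 3 each), a log2 difference of -1.62 (SE 1.06). Without the second WT lung the difference was -0.01 (SE 0.82), and without the first WT lung it was -2.16 (SE 0.58).

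The Ltf values moved with genes of stratified squamous epithelium, as the plot of Ltf beside keratin genes shows. A list of 14 such genes, written after the Ltf values were seen, summed to 483, 527 and 197 CPM in the Het lungs, against 10.7, 2650 and 572 CPM in the WT lungs. Krt4, a keratin of mucosal squamous epithelium, stood at 146, 170 and 68.7 CPM in Het and at 0.782, 884 and 192 CPM in WT. Krt13, its partner, stood at 152, 162 and 58.1 CPM in Het and at 0.0733, 904 and 185 CPM in WT. All 14 had a log2 difference under 0, with a median of -1.21. None passed the test (edgeR adjusted p = 1 for Krt4 and Krt13). A list of 10 striated muscle genes, written at the same time, summed to 756, 399 and 501 CPM in Het and 137, 1155 and 747 CPM in WT. Acta1, skeletal muscle actin, stood at 201, 92.9 and 104 CPM in Het and at 0.318, 275 and 210 CPM in WT. Myh6, a myosin of heart muscle, averaged 99.4 ± 41.5 CPM in Het and 113 ± 68.4 CPM in WT. The first WT lung, lowest for Ltf, was lowest for both lists, and the second WT lung was highest for both. The part of squamous or muscle tissue in the Ltf values was not tested. S100a8 and S100a9 did not follow this order: both were among the lowest in the second WT lung.

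**Figure D2:**
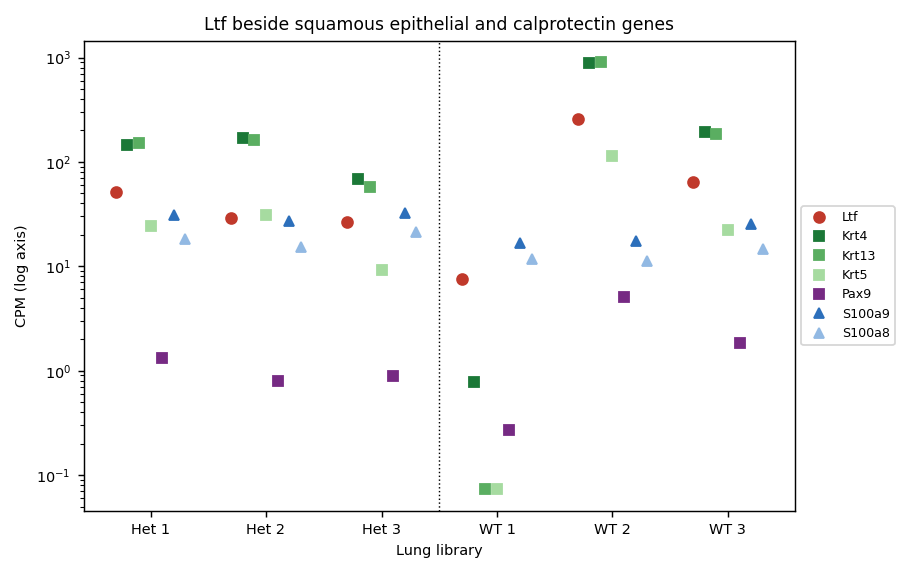
CPM (log axis) of Ltf, of the squamous epithelial genes Krt4, Krt13, Krt5 and Pax9, and of S100a9 and S100a8 in each of the 6 lungs; points are offset sideways so that none is hidden. Ltf reaches 257.6 CPM in the second WT lung, where Krt4 and Krt13 reach 884 and 904 CPM, and 7.50 CPM in the first, where they are at 0.782 and 0.0733 CPM, while S100a8 and S100a9 stay within 11.2 and 32.5 CPM in every lung.

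Ngp, Camp and Ltf lie on chromosome 9 within one stretch that also holds other genes. Camp (chr9:109847379-109849617, minus strand) and Ltf (chr9:111019271-111042767, plus strand) are 1169.7 kb apart, with Ngp (chr9:110419747-110423012, plus strand) between them. Of the 31 genes of the table between Camp and Ltf, 22 were tested in lung, with a median log2 difference of 0.002. The start regions of these 3 genes are printed because Ngp and Camp stood apart between the groups where Ltf did not. The windows are chr9:110419558-110419857 for Ngp, chr9:109849407-109849706 on the minus strand for Camp and chr9:111019042-111019341 for Ltf, from RefSeq and with the same marks as above.
Ngp: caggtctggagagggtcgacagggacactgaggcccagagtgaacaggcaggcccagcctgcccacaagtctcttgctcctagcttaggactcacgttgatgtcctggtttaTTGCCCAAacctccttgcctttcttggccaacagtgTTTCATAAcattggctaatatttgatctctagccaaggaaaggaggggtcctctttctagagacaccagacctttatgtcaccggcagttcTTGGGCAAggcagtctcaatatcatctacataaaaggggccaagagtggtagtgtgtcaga
Camp: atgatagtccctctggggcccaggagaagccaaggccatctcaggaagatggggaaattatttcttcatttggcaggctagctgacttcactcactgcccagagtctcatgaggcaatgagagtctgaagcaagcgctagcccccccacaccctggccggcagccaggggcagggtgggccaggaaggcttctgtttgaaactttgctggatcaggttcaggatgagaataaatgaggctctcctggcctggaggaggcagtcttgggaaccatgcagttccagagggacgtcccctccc
Ltf: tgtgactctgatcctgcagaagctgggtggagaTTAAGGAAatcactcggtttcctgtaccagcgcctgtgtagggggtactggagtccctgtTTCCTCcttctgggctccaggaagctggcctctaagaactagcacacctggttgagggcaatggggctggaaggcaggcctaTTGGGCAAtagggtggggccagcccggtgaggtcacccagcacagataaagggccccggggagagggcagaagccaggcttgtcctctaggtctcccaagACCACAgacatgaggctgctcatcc
Ngp holds 3 C/EBP matches, 138, 102 and 11 bases before the start. Ltf holds C/EBP matches 217 and 75 bases before the start, a PU.1 match 157 bases before it and a RUNX match 25 bases after it. The Camp window has none of these letters. Over the 9 of 10 genes with a window, which leaves out Mmp9, 6 held the C/EBP letters, 6 those of PU.1, 2 those of RUNX and 3 those of the TATAAA box. Of all 32817 mouse windows of the same 300 bases, 40.7%, 28.3%, 16.8% and 13.6% hold them, in that order. No matches overlapped, and a match describes letters and not binding.

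Mmp9, the tertiary granule gene, encodes gelatinase B, which cleaves denatured collagen and is also made by macrophages, fibroblasts and epithelial cells. It stood at 3.23, 3.81 and 9.69 CPM in the Het lungs, against 3.98, 3.90 and 6.03 CPM in the WT lungs. The third Het lung was high and the other Het lungs lay below every WT lung. The log2 difference was 0.27 (SE 0.44) with all libraries and -0.39 (SE 0.27) without the third Het lung.

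The primary granule genes were close to 0 in lung. Elane, neutrophil elastase, had 0, 0 and 2 counts in the Het lungs and 0, 2 and 0 counts in the WT lungs. Mpo, myeloperoxidase, had 2, 0 and 2 counts in Het and 2, 0 and 3 counts in WT. A count of 0 in a library allows up to 3 counts, so no difference was detectable at this depth, and neither gene passed the filter on low counts. Other transcripts of early granulocytes were also low. Ctsg, cathepsin G, had at most 4 counts in any lung, Bpi at most 2, and Ms4a3 none. Prtn3, proteinase 3, averaged 0.704 ± 0.22 CPM in Het and 0.447 ± 0.19 CPM in WT (edgeR adjusted p = 1). These 4 genes, from a list of 15 granule genes outside the 10, were named after their values were seen.

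The other genes lie apart from each other: Lcn2 at chr2:32384633-32388252 (minus strand), Mmp9 at chr2:164940780-164955850, Mmp8 at chr9:7558456-7568485, Elane at chr10:79886247-79888215 and Mpo at chr11:87793581-87804413 (GRCm38). Per kilobase of exon the 10 genes spanned a wide range in lung. In Het lungs S100a9 led with 57.8 ± 5.32 CPM per kb (SD, n = 3), followed by S100a8 with 26.4 ± 4.26, Lcn2 with 22.4 ± 4.75 and Ltf with 10.4 ± 4.07. Ngp followed with 3.16 ± 0.35, Camp with 2.29 ± 0.53, Mmp9 with 1.58 ± 1.01 and Mmp8 with 0.740 ± 0.19 CPM per kb. The neighbours S100a8 and Lcn2, Ngp and Camp, Camp and Mmp9, and Mmp9 and Mmp8 lay within their spread. In WT lungs S100a9 again led with 38.0 ± 8.88 CPM per kb, and Ltf followed with 31.8 ± 38.0, a spread that reaches past its neighbours. Lcn2 had 21.3 ± 3.46 and S100a8 18.1 ± 2.61 CPM per kb, which lay within their spread. Ngp, Mmp9, Camp and Mmp8 followed with 1.94, 1.31, 1.27 and 0.560 CPM per kb, of which Mmp9 and Camp overlapped. Elane and Mpo were last in both groups, at 0.0205 CPM per kb or less.

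Among the libraries, the third Het lung was highest for 6 of the 8 genes tested, namely S100a8, S100a9, Ngp, Lcn2, Mmp8 and Mmp9. The first Het lung was highest for Camp, and the second WT lung for Ltf. The second WT lung was lowest for S100a8, Camp, Lcn2 and Mmp8. The map of deviations shows sets of genes that are not sharply apart. S100a8, S100a9, Ngp and Camp were above their mean in all 3 Het lungs, with Pearson r of log2 levels between 0.76 and 0.96 in each pair. Lcn2 had r of 0.87 with Mmp8 and 0.86 with Mmp9, while Ltf had r from -0.70 with Mmp8 to -0.05 with S100a9. Mmp8 also had r of 0.77 with S100a8, 0.69 with Camp, 0.65 with S100a9, 0.60 with Ngp and 0.61 with Mmp9. Each r spans 6 libraries of 2 groups and is a description.

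**Figure D3:**
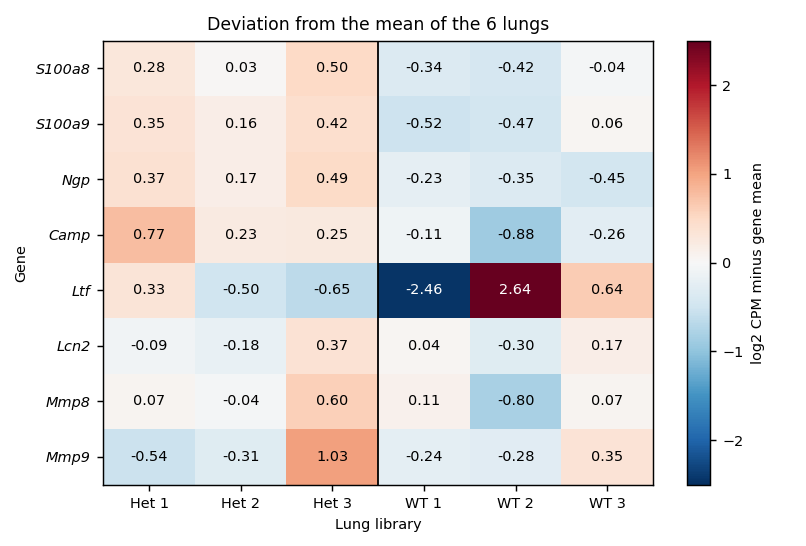
Deviation of each of the 8 genes tested in lung (rows) from its mean log2 CPM over the 6 lungs (columns), with red above and blue below the mean. S100a8, S100a9, Ngp and Camp are above 0 in the 3 Het lungs, Ltf is at -2.46 in the first WT lung and at 2.64 in the second, and Mmp9 is at 1.03 in the third Het lung.

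The lungs differed in the balance of short and long transcripts, which bears on these mostly short genes. The median log2 deviation of the shortest genes tested (3117 exon bases or fewer) minus that of the longest (5666 or more) was 0.27, 0.18 and -0.42 in the Het lungs and -0.21, 0.09 and 0.10 in the WT lungs. S100a8, S100a9, Ngp and Camp, with 522 to 1222 exon bases, were above their mean in every Het lung. Short genes as a class were high in the first and second Het lungs and lowest in the third. All of S100a8, S100a9, Ngp and Camp were below their mean in the first WT lung, where short genes were low. They were also below it in the second WT lung, where short genes were not low. In the third WT lung, where short genes were not low either, S100a9 was above its mean by 0.06. S100a8, Ngp and Camp stood at -0.04, -0.45 and -0.26 there. A list of 8 stress and dissociation genes summed to 267 to 303 CPM in Het lungs and to 311 to 343 CPM in WT lungs, without overlap. Jun, its most abundant gene, averaged 185 ± 4.94 CPM in Het and 223 ± 16.1 CPM in WT (SD, n = 3 each; log2 difference -0.27, edgeR adjusted p = 1). Junb averaged 32.4 ± 4.85 CPM in Het and 36.6 ± 3.84 CPM in WT. The part of transcript length or of these stress genes in the levels above was not tested.

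No gene was called in lung by the main test, so no other neutrophil gene was called either. Most medians of the neutrophil lists lay close to that of all genes. The test across all 15933 genes called 0 between Het and WT lungs (0%; edgeR, Benjamini-Hochberg adjusted p under 0.05), against 114 (0.715%) at an unadjusted p under 0.05. DESeq2 called 1 of 15913 (0.00628%). The median log2 difference over all genes was 0.007, with 10% of genes below -0.21 and 10% above 0.23. Of 20 tested genes for neutrophil receptors and mature neutrophil products, 14 lay above 0 and the median was 0.10. Asprv1, a protease of skin and neutrophils, averaged 14.1 ± 5.19 CPM in Het and 37.3 ± 42.9 CPM in WT. It stood at 17.5, 16.6 and 8.12 CPM in Het and 1.64, 84.9 and 25.4 CPM in WT. Like the squamous list, Asprv1 was lowest in the first WT lung and highest in the second. The part of squamous tissue in its level was not tested. Itgam, the alpha chain of Mac-1, averaged 13.9 ± 4.49 CPM in Het and 13.1 ± 3.28 CPM in WT. The receptor for granulocyte colony-stimulating factor, Csf3r, averaged 12.2 ± 3.24 CPM in Het and 11.4 ± 2.51 CPM in WT. The chemokine receptor Cxcr2 averaged 2.93 ± 1.11 CPM in Het and 2.63 ± 0.17 CPM in WT. Of the 20 tested genes 2, Cxcr1 and the stefin-like BC100530, had every Het lung above every WT lung. Of all 15933 genes tested in lung, 1.96% did so. BC100530 averaged 6.05 ± 0.28 CPM in Het and 4.65 ± 1.35 CPM in WT, and its near copies among the stefins could share reads with it. Stfa1, a stefin, stood at 10.2, 9.69 and 10.5 CPM in Het and 6.30, 5.44 and 10.1 CPM in WT, with overlap. Retnlg stood at 4.03, 2.36 and 7.66 CPM in Het and 2.61, 2.05 and 4.08 CPM in WT, with overlap. Il1b leaned the other way, at 0.832, 1.31 and 3.16 CPM in Het and 3.91, 2.48 and 2.49 CPM in WT. Csf3r, Cxcr2, Cxcr1, BC100530, Stfa1, Retnlg and Il1b were named after their values were seen.

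Of 11 tested granule genes outside the 10, 7 lay above 0, with a median log2 difference of 0.03. Lyz2, a lysozyme of macrophages and neutrophils, averaged 1707 ± 435 CPM in Het and 1895 ± 251 CPM in WT, and Hp, haptoglobin, averaged 670 ± 232 CPM in Het and 561 ± 98.4 CPM in WT. All 6 subunits of the NADPH oxidase, the enzyme that makes superoxide in phagocytes, lay above 0 with a median of 0.11. Among them Cyba averaged 108 ± 21.4 CPM in Het and 101 ± 6.70 CPM in WT, and Cybb 38.2 ± 17.3 CPM in Het and 30.8 ± 4.34 CPM in WT. Of 8 tested granulocyte transcription factors, 4 lay above 0 (median 0.02). Cebpa averaged 102 ± 9.22 CPM in Het and 98.6 ± 6.26 CPM in WT, and Cebpb 55.3 ± 20.5 CPM in Het and 55.8 ± 8.39 CPM in WT.

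Of 10 tested growth factors and chemoattractants of neutrophils, 4 lay above 0 and the median was -0.06. Cxcl15, a chemokine that lung epithelium makes in quantity, averaged 1227 ± 132 CPM in Het and 1123 ± 186 CPM in WT, and Cxcl12, which retains neutrophils in the marrow, 268 ± 23.3 CPM in Het and 265 ± 4.68 CPM in WT. Of 14 tested partners, receptors and inhibitors of the proteins themselves, 9 lay above 0 (median 0.05). Ager, the receptor for advanced glycation end products and an abundant gene of alveolar type 1 cells, averaged 2477 ± 437 CPM in Het and 2376 ± 175 CPM in WT, and Bsg, basigin, 738 ± 162 CPM in Het and 718 ± 46.3 CPM in WT. Of 12 tested S100 genes other than S100a8 and S100a9, 9 lay above 0 (median 0.05). S100a11 averaged 490 ± 170 CPM in Het and 442 ± 65.8 CPM in WT, and S100a6 averaged 292 ± 103 CPM in Het and 246 ± 43.2 CPM in WT.

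**Figure D4:**
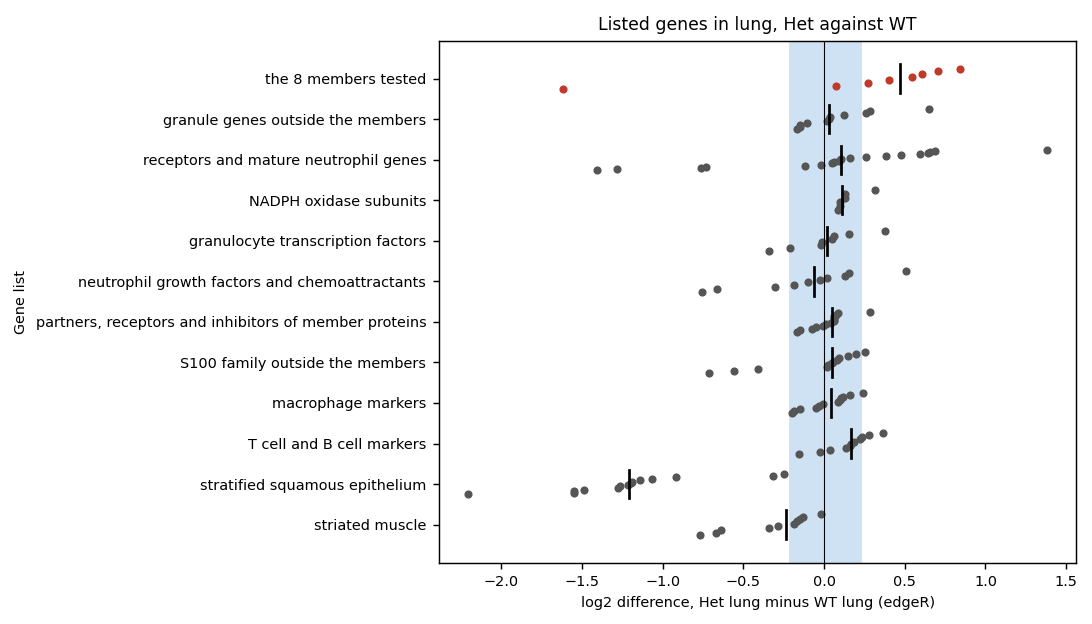
Log2 difference between Het and WT lungs (x axis, edgeR) for each tested gene (points) of the named lists (rows), with the list median as a black bar and the range that holds the middle 80 percent of all 15933 tested genes shaded from -0.21 to 0.23. The 8 neutrophil granule and calprotectin genes are in red, with Ltf alone at -1.62. The NADPH oxidase subunits all lie above 0, with a median of 0.11, and all 14 squamous epithelium genes lie below 0.

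Markers of other cells of the lung are given beside these levels. The 12 macrophage markers summed to 1572 to 2411 CPM in Het lungs and 2036 to 2590 CPM in WT lungs, and 6 of 12 lay above 0 (median log2 difference 0.04). Lyz2, 1 of the 12, made up most of each sum, at 1206, 1982 and 1933 CPM in Het and 1808, 1699 and 2178 CPM in WT. Emr1, Csf1r, Cd68, Mrc1, Marco, Itgax and Mpeg1 were highest in the third Het lung, where Mmp9 was also highest. Cd14 and C1qc were highest in the first Het lung, and Lyz2, C1qa and C1qb in the third WT lung. Macrophages also transcribe Mmp9 and Lyz2. Mpeg1, perforin-2 of macrophages, averaged 97.6 ± 22.1 CPM in Het and 91.0 ± 12.5 CPM in WT. The 11 T and B cell markers summed to 114 to 129 CPM in Het and 71.8 to 138 CPM in WT, and 9 of 11 lay above 0 (median 0.17). The B cell receptor chains Cd79b and Cd79a averaged 31.7 ± 1.99 and 29.0 ± 3.72 CPM in Het, against 28.8 ± 10.0 and 25.8 ± 10.0 CPM in WT. Of eosinophil, basophil and mast cell markers, 5 of 6 tested lay above 0 (median 0.21), and Epx, eosinophil peroxidase, was listed at 0 in all 6 lungs. Prg2 and Ccr3, on the same list, reached at most 0.460 and 1.09 CPM in any lung. Ear1, an eosinophil-associated ribonuclease, averaged 13.3 ± 0.61 CPM in Het and 11.4 ± 1.38 CPM in WT, with every Het lung above every WT lung. Siglec5, the symbol matched for Siglecf, averaged 6.31 ± 2.75 CPM in Het and 4.78 ± 1.80 CPM in WT. Tpsb2, a mast cell tryptase named after its values were seen, had every Het lung below every WT lung, at 0.533, 0.840 and 1.61 CPM in Het and 2.91, 1.78 and 2.25 CPM in WT. Of all 15933 genes tested in lung, 1.96% had every Het lung above every WT lung and 2.28% had the reverse. Erythroid and platelet markers had 5 of 6 tested above 0 (median 0.18), progenitor markers 4 of 5 (0.14), thymocyte markers 2 of 4 (0.14), epithelial markers 8 of 12 (0.09), endothelial markers 4 of 6 (0.03) and fibroblast markers 2 of 8 (-0.09). The most abundant of these stood as follows. Alas2, of erythroid cells, averaged 123 ± 28.0 CPM in Het and 107 ± 6.60 CPM in WT, and Itga2b, of platelets, 12.2 ± 3.91 CPM in Het and 12.8 ± 1.86 CPM in WT. Kit, the receptor of stem cell factor, averaged 147 ± 1.14 CPM in Het and 133 ± 8.64 CPM in WT. Every Het lung lay above every WT lung for Kit and also for Gata2 of this list, as for 1.96% of all genes tested. Gata2 stood at 102, 105 and 99.5 CPM in Het and 88.5, 87.8 and 96.9 CPM in WT. Cd34 averaged 651 ± 86.7 CPM in Het and 664 ± 24.4 CPM in WT. Cd34 and Gata2 also had fibroblast medians of 24.3 and 7.93 CPM, so they are not particular to progenitors. Cd1d1 and Rag1, listed as thymocyte markers, averaged 21.2 ± 1.73 and 1.04 ± 0.17 CPM in Het, against 21.6 ± 1.65 and 1.05 ± 0.92 CPM in WT. Cd1d1 also had a median of 6.24 CPM in the fibroblasts, so its level is not particular to thymocytes. The airway gene Scgb1a1 averaged 20938 ± 10717 CPM in Het and 15581 ± 4697 CPM in WT, and Sftpc, surfactant protein C of alveolar type 2 cells, 19087 ± 6138 CPM in Het and 17350.5 ± 1960 CPM in WT. The endothelial genes Cdh5 and Cldn5 averaged 711 ± 177 and 548 ± 138 CPM in Het, against 658 ± 89.0 and 596 ± 110 CPM in WT. The collagen genes Col3a1 and Col1a2 averaged 4434 ± 712 and 2413 ± 279 CPM in Het, against 4618 ± 260 and 2658 ± 232 CPM in WT. None of the genes on these lists passed the test (edgeR adjusted p = 1 for each one given with a mean and for Tpsb2). The part of blood content in the lung levels was not tested.

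By likeness over the 6 lungs, the genes closest to the mean standardised level of the 8 tested genes were Sept6, Cd48, Tab3, Cxcl14, Kcns3, Il17ra, Sowahc and Tmem143, with Pearson r from 0.95 to 0.98 among 14344 genes ranked. Cd48, a surface protein of white blood cells, stood at 9.26, 8.59 and 10.1 CPM in Het and at 7.45, 7.70 and 8.82 CPM in WT. Ranked instead against Ltf alone, a choice made after its values were seen, the closest genes were H19 and Pax9, both with r of 0.997. H19, an imprinted RNA of growing tissue, stood at 207, 154 and 127 CPM in Het and at 69.8, 497 and 236 CPM in WT. Pax9, a transcription factor of pharyngeal and oesophageal epithelium, stood at 1.33, 0.794 and 0.881 CPM in Het and at 0.269, 5.08 and 1.86 CPM in WT. The rest of the 8 genes most like Ltf were Tmem38a, Kcnh3, Klk10, Serpinb1a, Il1r2 and Muc20, with r from 0.985 to 0.994. Serpinb1a, an inhibitor of neutrophil serine proteases, and Il1r2, a decoy receptor for interleukin-1, are on the neutrophil lists. Pax9 is on the squamous list. Il1r2 stood at 1.96, 1.52 and 0.881 CPM in Het and 0.464, 7.88 and 2.22 CPM in WT. The genes were picked for likeness, so no p-value is given.

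Fibroblasts in culture, which should lack neutrophils, had little or none of these transcripts other than Mmp9. Lungs and fibroblasts of all groups are compared first by counts summed over libraries and divided by summed library totals, with 95% intervals that cover counting error only. S100a9 was higher in lung by 579 times (428 to 804), Ltf by 812 times (650 to 1030), Lcn2 by 316 times (272 to 368) and S100a8 by 252 times (195 to 331). Ngp was higher by 102 times (70.8 to 152), Camp by 30.1 times (21.8 to 42.4) and Mmp8 by 30.1 times (22.5 to 41.1). S100a9 had a count in 5 of 21 fibroblast libraries, S100a8 in 9, Ngp in 7, Ltf in 8, Camp in 12, Mmp8 in 13 and Lcn2 in 15. Single libraries carried much of the pooled fibroblast counts: 28 of 42 for S100a9 and 32 of 60 for S100a8 in the second KO library, and 94 of 177 for Lcn2 in the second KO-NTD library. Between groups of the same label the ratios were larger in both Het and WT for S100a8, Lcn2, Ngp and Mmp8. For S100a8 they were 1112 (308 to 9189) between Het lungs and Het fibroblasts and 1110.5 (379 to 5392) between WT lungs and WT fibroblasts of both experiments, and for Lcn2 they were 3617 (1001 to 29869) in Het and 1241 (710.1 to 2404) in WT. For Ngp they were 233 (64.2 to 1930.1) in Het and 634 (113 to 25142) in WT. For S100a9 the ratio in Het was 1817 (503 to 15011), also above its pooled ratio. S100a9 had 0 counts in WT fibroblasts and was at least 290.4 times higher in WT lungs, with 3 counts per library as the floor. The highest counts of S100a8, S100a9 and Ngp among fibroblasts, 32, 28 and 13, all fell in the second KO library, which also had the highest sum of the 12 macrophage markers, 374 CPM. The other KO libraries summed to 12.3 and 253 CPM for these markers. Elane had 4 counts in all lungs and 2 in all fibroblasts, too few for a ratio, and Mpo had 9 counts in lung and 156 in fibroblasts, a ratio of 0.238 (0.107 to 0.463).

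Mmp9 was the one gene of the 10 with a level in every fibroblast library. It had 128 to 1142 counts there, and 2.60 to 38.3 CPM with a median of 13.6, against 3.23 to 9.69 CPM in the lungs. Lung over fibroblast, the ratio of summed counts was 0.413 (0.390 to 0.438). WT fibroblasts of the first experiment overlapped with the lungs, at 4.09, 3.45 and 2.60 CPM. Mmp9 and Mpo alone passed the count filter in fibroblasts, where the levels did not choose the genes, and could be tested.

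In the first experiment Mmp9 stood at 10.6, 10.1 and 7.30 CPM in the fibroblasts labelled KO, against 4.09, 3.45 and 2.60 CPM in WT fibroblasts. Every KO library lay above every WT library, as 8.47% of 14551 genes did. Mean levels were 9.33 ± 1.77 CPM in KO fibroblasts and 3.38 ± 0.75 CPM in WT fibroblasts (SD, n = 3 each), a log2 difference of 1.46 (SE 0.28) that did not pass the threshold of 0.05 (edgeR adjusted p = 0.0819). DESeq2 gave an adjusted p of 8.2e-05 for the same counts. It called 3.43% of 13976 genes, where edgeR called 0.447% of 14551, and no single library left out brought edgeR's adjusted p under 0.0908. The macrophage markers summed to 12.3, 374 and 253 CPM in KO and 94.1, 55.6 and 73.6 CPM in WT, and the first KO library, lowest for these markers, was the highest of the KO libraries for Mmp9. Their part in the Mmp9 level was not tested.

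The other fibroblast comparisons gave smaller differences of Mmp9. In KO-NTD fibroblasts it stood at 9.95, 10.3 and 5.32 CPM, with a log2 difference to KO of -0.13 (SE 0.27, edgeR adjusted p = 0.901). These comparisons share the KO libraries, so they are not independent. In the second experiment it stood at 13.6, 15.4 and 21.8 CPM in Het and at 21.3, 24.5 and 11.9 CPM in WT, a log2 difference of -0.19 (SE 0.41, edgeR adjusted p = 0.804), where edgeR called 16.5% of 14314 genes. Het-NTD fibroblasts had 21.5, 16.8 and 22.9 CPM, a log2 difference to Het of 0.27 (SE 0.41, adjusted p = 0.949). WT-NTD fibroblasts had 38.3, 14.6 and 15.1 CPM, a log2 difference to WT of 0.23 (SE 0.41, adjusted p = 0.913), and the first WT-NTD library set the height of its group: without it the difference was -0.38. The shares of genes called were 0.00687%, 0.014% and 0.014% for KO-NTD against KO, Het-NTD against Het and WT-NTD against WT. The difference between the NTD effects in Het and WT fibroblasts was 0.04 (SE 0.58, adjusted p = 0.995), with 0 of 14314 genes called. These misses do not show that Mmp9 was equal in any pair of groups.

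**Figure D5:**
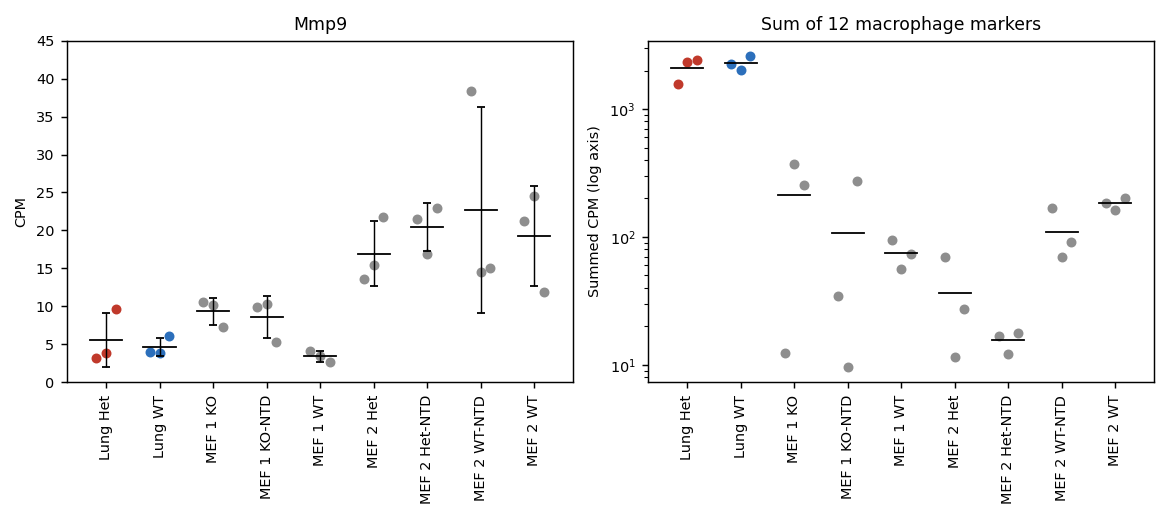
Left, CPM of Mmp9 in each library (points) with the mean and SD of each group of 3; right, summed CPM of 12 macrophage markers (log axis) with group means, in the same 9 groups. Mmp9 is at 7.30 to 10.6 CPM in KO and 2.60 to 4.09 CPM in WT fibroblasts of the first experiment and reaches 38.3 CPM in a WT-NTD library, while the macrophage markers are highest in the lungs. Lyz2 makes up most of the sums in the lungs.

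Mpo in fibroblasts rested on 0 to 18 counts per library and did not pass the test in any of the 5 comparisons. Its highest level, in a Het-NTD library, was 0.399 CPM. Het fibroblasts had 13, 2 and 7 counts, against 2, 0 and 0 counts in WT fibroblasts of the second experiment (edgeR adjusted p = 0.109). In the other 4 comparisons the adjusted p ran between 0.673 and 0.946. Mpo shares exon sequence with Gm11505, a gene on the opposite strand that is not in the table, and the libraries do not mark strand. The part of Gm11505 in the Mpo counts was not tested.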

How the data were processed

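Messenger RNA of whole lungs and embryonic fibroblasts was sequenced from TruSeq RNA v2 libraries, per the labels' protocols, a kit that does not mark strand. The deposited values are raw counts per gene symbol; the submitters' processing notes name TopHat2 2.0.14, Bowtie2 2.2.6, featureCounts 1.4.6, Subread and mm10. How reads were assigned is not given in the sources used here. Among low nonzero counts, 61.5 to 67.3% per library were even, so counts may not be independent and counting intervals may be too narrow.

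Lungs (6 libraries, 15933 genes), first-experiment fibroblasts (9 libraries, 14551 genes) and second-experiment fibroblasts (12 libraries, 14314 genes) each had a fit of its own in edgeR 4.0.16 under R 4.3.3 (filterByExpr, TMM, robust quasi-likelihood F test, two-sided, Benjamini-Hochberg over all genes tested, threshold 0.05). CPM are counts per 1000000 counts of a library, scaled by TMM within each fit. Lung and fibroblast ratios use library totals without TMM. DESeq2 1.42.0, RLE factors, no filter, each library left out, a replicate block and library totals alone were alternatives. Exon lengths come from GENCODE M21. The script was checked on simulated counts. Replicates differed beyond sampling noise (lowest chi-square per degree of freedom 5.88).

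The 10 genes and all gene lists were chosen with earlier results of these data known. In each list used in lung the 2 genes highest there were named, as none passed; so were the 8 genes most like the mean of the 8 tested in lung. Ly6g, Wfdc21 and Ahsp were not found by symbol.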

Additional observations from a re-analysis of the deposited data

How the results depend on the processing

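Of the log2 differences of the 8 genes in lung, 87 of 88 recomputed values moved by less than the SD of single libraries within a group. Mmp9 without the third Het lung, at -0.39, moved by more. A mean seldom moves by more than that SD when 1 library of 3 is left out, so this count is no measure of stability. Ltf, which moved from -1.62 to -0.01 without the second WT lung, was counted as within it. Leaving out 1 library gave 0.42 to 0.67 for S100a8, 0.51 to 0.81 for S100a9, 0.63 to 0.79 for Ngp and 0.63 to 1.02 for Camp, and the sign turned for Lcn2 without the third Het or the second WT lung. With a replicate block the Ltf difference was -0.80. Lung calls numbered 0 under each library left out and 1 with DESeq2. For KO against WT, 65 genes were called, against 479 with DESeq2 and 24 to 142 with 1 library left out. For KO-NTD against KO the count was 1, against 2 with no filter, 27 with DESeq2 and 1 to 29 with 1 library left out (29 without the first KO library). For Het against WT fibroblasts it was 2362, against 2896 with DESeq2 and 1304 to 2547 with 1 library left out. For Het-NTD against Het it was 2, against 1 with the replicate block, 23 with DESeq2 and 1 to 3. For WT-NTD against WT it was 2, against 5 with no filter, 4 with the replicate block, 28 with DESeq2 and 2 to 119 (119 without the first WT library). The cause of these shifts was not tested. Same-numbered libraries did not pair: no comparison had a correlation over 0.1 in all 3 pairs, although in WT-NTD against WT each library correlated best with its own number, a hint from the data and not the design. With the block Mmp9 in KO against WT passed (adjusted p = 0.0159), as it did with DESeq2; no other call on these genes changed. Differences in Elane, Mpo and Camp are limited by low counts.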

Other observations

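The haemoglobin genes Hba-a1, Hba-a2, Hbb-bs and Hbb-bt were listed at 0 in all 27 libraries, while Alas2, the erythroid enzyme of haem synthesis, stood at 99.3 to 155 CPM in the 6 lungs, so those zeros are no measure of blood in the tissue. Of 7 tested genes of airway secretory cells and glands, a list written after the Ltf values were seen, 0 lay above 0 between Het and WT lungs (median log2 difference -0.87). Its genes did not share 1 order over the WT lungs. Lyz1, a lysozyme and the most abundant of them, stood at 866, 873 and 637 CPM in the Het lungs and at 792, 744 and 945 CPM in the WT lungs. Scgb3a1, a secretoglobin of airway glands, stood at 387, 79.8 and 112 CPM in the Het lungs and at 81.9, 428 and 208 CPM in the WT lungs. Muc5ac and Pigr were highest in the first WT lung, at 23.7 and 26.1 CPM, and were named after their values were seen. Of the cartilage genes, Col2a1 averaged 1.94 ± 0.27 CPM in Het and 2.06 ± 0.78 CPM in WT, and Acan 0.288 ± 0.19 CPM in Het and 0.540 ± 0.16 CPM in WT. Cxcl5, a chemokine for neutrophils, was the 1 gene of 10 tested on its list with every Het lung below every WT lung. Of all 15933 genes tested in lung, 2.28% did so. Cxcl5 averaged 0.764 ± 0.18 CPM in Het and 1.21 ± 0.27 CPM in WT (edgeR adjusted p = 1). It was named after its values were seen.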
